A study of Mus musculus with 12 samples.

Results

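Ataxins are proteins named after inherited ataxias, disorders of balance and coordination in which Purkinje cells of the cerebellum are among the neurons that degenerate. The 10 genes described are 5 ataxins (Atxn1, Atxn2, Atxn3, Atxn7 and Atxn10) and 5 paralogs (Atxn1l, Atxn2l, Atxn7l1, Atxn7l3 and Atxn7l3b), taken by gene symbol from 43346 annotated genes in the deposited tables. All 10 symbols matched 1 gene identifier each. Total RNA was measured in 12 Smart-seq libraries, a method that copies RNA from single cells along the length of the transcript. The libraries are technical replicates 1 to 6 and 8 to 13 of 1 male mouse aged 14 months, of the strain B6CASTF1/J, which the labels describe as Castaneus crossed with C57Bl6. Its 13 excised Purkinje cells, the output neurons of the cerebellar cortex, were homogenised together, and each library received 1 cell-equivalent of RNA longer than 200 bases with spike-in RNA. No library was treated and none is a control, so levels, spread and differences between genes are described, and every p-value measures technical spread within 1 pool and nothing between animals.

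In humans, a lengthened run of the codon CAG, read as glutamine, in ATXN1, ATXN2, ATXN3 or ATXN7 causes a spinocerebellar ataxia, whereas in ATXN10 the lengthened repeat lies in an intron. The proteins differ in their work: ataxin-1 and its paralog bind the repressor Capicua, ataxin-2 is an RNA-binding protein, ataxin-3 removes ubiquitin, and ataxin-7 and several of its relatives belong to the deubiquitinating module of the SAGA chromatin complex. Ataxin-10 is an armadillo-repeat protein of the cytoplasm.

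The mouse coding sequences of these 4 genes were searched for runs of glutamine codons in the reference genome, which is that of C57BL/6J and not of the hybrid. The stretch around the longest run anywhere in the coding sequence (the first such run, where several are equally long) is given 5′ to 3′ from GENCODE M21 transcripts (GRCm38), with the run in capitals. Whether it lies at the position that expands in the human gene was not examined.
Atxn1: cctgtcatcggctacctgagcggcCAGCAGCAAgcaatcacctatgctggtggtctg
Atxn2: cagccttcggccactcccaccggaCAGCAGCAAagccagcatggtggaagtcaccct
Atxn3: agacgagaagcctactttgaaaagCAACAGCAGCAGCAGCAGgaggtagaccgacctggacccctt
Atxn7: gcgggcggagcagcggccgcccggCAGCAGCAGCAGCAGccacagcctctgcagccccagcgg
The run of Atxn3 held 6 glutamine codons, 5 CAG and 1 CAA, at codons 292 to 297 of 355. The run of Atxn7 held 5 CAG codons at codons 25 to 29 of 920. The runs shown lay at codons 444 to 446 of 799 in Atxn1 and at codons 1129 to 1131 of 1286 in Atxn2, which also held a run of 3 CAG codons elsewhere. In both genes no run was longer than 3 codons, and the paralogs Atxn1l and Atxn2l reached 2. In Atxn7l1, Atxn7l3, Atxn7l3b and Atxn10 no glutamine codon stood next to another.

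The paralogs Atxn7l3b and Atxn7l3, both measured below at very different levels, are shown because reads can be assigned to one of them only where they differ. Coding bases 31 to 90 of Atxn7l3b are set against bases 37 to 96 of Atxn7l3, with differing bases in capitals.
Atxn7l3b: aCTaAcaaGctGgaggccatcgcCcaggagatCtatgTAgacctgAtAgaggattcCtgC
Atxn7l3: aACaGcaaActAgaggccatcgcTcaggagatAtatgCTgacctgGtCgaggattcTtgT
The stretch held 13 differing bases of 60, and the whole 291-base coding sequence of Atxn7l3b, placed without gaps, was identical to Atxn7l3 at 171 bases (58.8%). Over all annotated transcripts, the longest exact run shared by any of the 45 pairs of genes was 38 bases, below the 100-base fragment length that the deposited effective lengths imply, and between Atxn7l3b and Atxn7l3 it was 24 bases.

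The libraries held 13694551 to 24108916 expected counts on annotated genes, with 8497 to 11581 genes at a count of 1 or more and a spike-in share of 4.78% to 14.6% of the gene and spike-in counts. Libraries 1, 4 and 13 had the lowest spike-in shares and the most genes. No 2 libraries matched within sampling noise, since chi-square per degree of freedom was 539 or more in all 66 pairs. The 10 Purkinje cell markers, of which Pcp2 and Pcp4 were highest, summed to 20185 to 35540 TPM (transcript abundance scaled for length and for the library's total, spike-ins included). The lowest of them were Lhx5 at 4.74 ± 9.10 TPM, with counts in 9 libraries, and Foxp2 at 23.6 ± 31.7 TPM. Markers of other cells were present too. The 10 Bergmann glia and astrocyte markers summed to 1402 to 3713 TPM, the 10 granule cell markers to 88.3 to 864 TPM and the 10 oligodendrocyte markers to 91.3 to 378 TPM. The markers of these lists with counts in the fewest libraries were, in turn, Gfap (6 libraries), Zic2 (7) and Olig2 (1). The 10 microglial markers summed to 0 to 462 TPM with C1qc and Fcer1g at 0 throughout, the 8 endothelial and mural markers to 0 to 290 TPM with Cldn5, Kdr and Acta2 at 0, and the 8 interneuron markers to 1.46 to 106 TPM with Sst at 0. The part of these other cells in the levels below was not tested, and in a pooled lysate fewer cells of a type and less RNA per cell cannot be told apart.

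The ataxin family was led by 1 gene. Atxn10 averaged 172 ± 74.9 TPM (SD, n = 12), Atxn2 67.2 ± 92.0 TPM, Atxn7l3b 32.8 ± 24.5 TPM and Atxn7l1 23.5 ± 31.6 TPM, while the other 6 genes averaged between 0.304 and 5.67 TPM. The 10 genes together summed to 315 ± 132 TPM, from 145 TPM in library 1 to 659 TPM in library 5, and Atxn10 made up 37.1% to 94.1% of the sum. Among all annotated genes, the mean of Atxn10 stood at percentile 98.4, that of Atxn2 at percentile 96.1 and that of Atxn3, the lowest mean of the family, at percentile 68.4. Of these 43346 genes, 26372 had no count in any library, so the last percentile lies little above genes not seen at all.

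**Figure D1:**
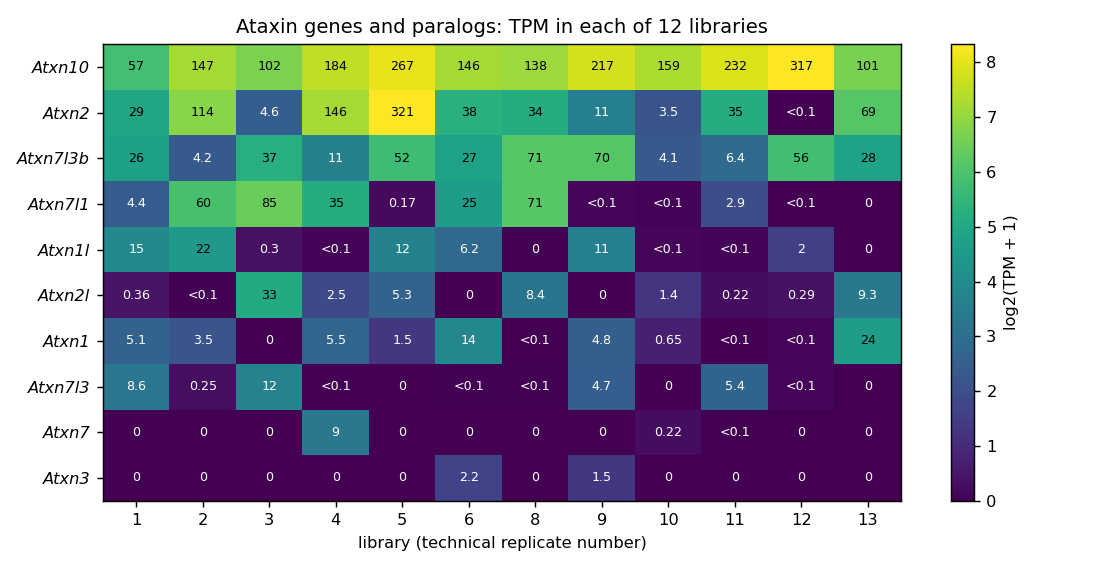
TPM of each gene (rows, by mean TPM) in each library (columns, by technical replicate number), with colour giving log2(TPM + 1) and the TPM printed in the cell. Atxn10 was at 56.9 TPM or more in all 12 libraries, whereas Atxn7 and Atxn3 were at 0 in 9 and 10 libraries.

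Atxn10 (ENSMUSG00000016541.9; mm10 chromosome 15, 85336245 to 85463212, plus strand) was the most abundant of the family and the most even. Its level had a minimum of 56.9 TPM in library 1, a median of 153 TPM and a maximum of 317 TPM in library 12. The count behind it was 2359 or more in every library, so the counting error of reads was small beside this range. Reads are PCR copies without molecular identifiers, so the error from sampling molecules was not measured. The tables annotate 1 transcript, Atxn10-201. Of the 2 listed partners of ataxin-10, Ogt, the enzyme that adds N-acetylglucosamine to proteins, averaged 42.0 ± 28.4 TPM and reached a count of 50 in 11 libraries. Gnb2, a G protein beta subunit, averaged 10.0 ± 13.5 TPM and reached it in 5.

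Atxn2 (ENSMUSG00000042605.11; chromosome 5, 121711337 to 121816493, plus strand) was present at a count of 1 or more in every library but at very unequal levels. Its minimum was 0.01 TPM, from a single count in library 12, its median 34.7 TPM and its maximum 321 TPM in library 5. Libraries 2, 4 and 5 stood above 100 TPM and libraries 3, 10 and 12 below 5 TPM. Library 5 was the only one in which Atxn2 exceeded Atxn10 by TPM, at 321 TPM for Atxn2 and 267 TPM for Atxn10. In counts Atxn2 was the lower there, with 4629 counts against 8345. The length by which TPM divides was 1072 bases for Atxn2 and 2326 bases for Atxn10. Without library 5 the mean of Atxn2 was 44.1 TPM.

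Atxn2l (ENSMUSG00000032637.11; chromosome 7, 126491708 to 126503437, minus strand), the paralog of Atxn2 that also takes part in stress granules, was far lower. It had a minimum of 0 TPM in libraries 6 and 9, a median of 0.890 TPM and a maximum of 32.9 TPM in library 3. Library 3, where Atxn2l was highest, was among the low libraries of Atxn2 (4.56 TPM). Without library 3 the mean of Atxn2l was 2.53 TPM, against 5.07 ± 9.39 TPM with it. Of 10 listed genes of RNA-binding proteins and granule components that work beside ataxin-2, 9 matched the tables, 7 had a count of 1 or more in every library and 4 a count of 50 or more. Over all annotated genes, 8.46% and 3.72% reached these counts in every library. Tardbp, which encodes TDP-43, was highest at 119 ± 111 TPM, followed by the stress granule genes Caprin1 (72.0 ± 50.8 TPM) and G3bp2 (67.7 ± 35.1 TPM). The lowest was Pabpc4, a poly(A)-binding protein, at 0.393 ± 0.650 TPM.

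Atxn1 and its paralog Atxn1l, which share the binding of Capicua, had means near each other and their highest values in different libraries. Atxn1 (ENSMUSG00000046876.11; chromosome 13, 45549755 to 45965008, minus strand) had a minimum of 0 TPM in library 3, a median of 2.51 TPM and a maximum of 24.1 TPM in library 13. Atxn1l (ENSMUSG00000069895.3; chromosome 8, 109726451 to 109737739, minus strand) had a minimum of 0 TPM in libraries 8 and 13, a median of 1.15 TPM and a maximum of 22.0 TPM in library 2. Library 13, which held 4858 counts of Atxn1, thus held none of Atxn1l. A count of 0 there allows up to 3 counts, 0.148 CPM (counts scaled to the gene total of the library); such limits cover counting error only. Both genes had 50 counts or more in libraries 1, 2, 5, 6 and 9, which are all but 1 of the 6 libraries where Atxn1l did. The mean of Atxn1 was 3.15 TPM without library 13, where 4.90 ± 7.21 TPM was measured with it. Gmpr, a GMP reductase gene on the opposite strand, overlaps the end of Atxn1 and averaged 20.9 ± 44.9 TPM. The strand of the libraries is not given in the sources used here, so reads of the overlap cannot be told apart. Of the 11 listed partners and targets of ataxin-1 and Capicua, 5 had a count of 1 or more in every library and 1, the Capicua target Etv5, had 50 or more. The shares of all annotated genes were 8.46% and 3.72%. Cic, which encodes Capicua itself, averaged 24.9 ± 41.4 TPM and had counts in 8 libraries. The corepressor enzyme Hdac3 (42.0 ± 50.5 TPM), the splicing factor Rbm17 (39.9 ± 39.5 TPM) and the transcription factor Etv1 (30.5 ± 25.9 TPM) were the highest of the list, and Gfi1 had no count.

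Atxn3 (ENSMUSG00000021189.7; chromosome 12, 101918901 to 101958246, minus strand), the deubiquitinase with the longest glutamine run above, had the lowest mean of the family, at 0.304 ± 0.726 TPM, but was not separated from Atxn7 (exact sign-flip permutation test, adjusted p = 0.851 for Atxn7 over Atxn3). It had 200 counts in library 6 (2.18 TPM), 135 counts in library 9 (1.47 TPM) and 0 in the other 10 libraries. Its mean was 0.134 TPM without library 6 and 0.198 TPM without library 9. Without library 4, Atxn7 had the lowest mean, at 0.0209 TPM, and Atxn3 stood at 0.332 TPM. A count of 0 allows up to 0.124 to 0.219 CPM over the 12 libraries. The related Josephin-domain genes were also low, with Josd2 at 4.75 ± 8.30 TPM (counts in 5 libraries) and Josd1 at 0.872 ± 2.66 TPM (counts in 4 libraries). Of 10 genes listed for ubiquitin and ataxin-3 partners, Josd1 and Josd2 included, 5 had a count of 1 or more in every library. The share of all annotated genes was 8.46%. The ubiquitin ligase gene Stub1 was at 118 ± 90.6 TPM, the segregase gene Vcp, whose product binds ataxin-3, at 57.2 ± 43.4 TPM with 50 counts or more in all 12 libraries, and the autophagy gene Becn1 at 37.1 ± 44.8 TPM.

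Among Atxn7 and its relatives, Atxn7l3b was highest at 32.8 ± 24.5 TPM and Atxn7 itself lowest at 0.772 ± 2.60 TPM. Atxn7l3b (ENSMUSG00000074748.3; chromosome 10, 112925430 to 112929001, minus strand), a short relative of Atxn7l3 with 97 codons, was present in every library at 323 counts or more. Its minimum was 4.08 TPM in library 10, its median 27.5 TPM and its maximum 70.6 TPM in library 8. Libraries 2, 10 and 11 were low, at 4.08 to 6.36 TPM, and library 4 followed at 11.4 TPM.

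Atxn7l3 (ENSMUSG00000059995.8; chromosome 11, 102289300 to 102296631, minus strand), a subunit of the SAGA deubiquitinating module, had a minimum of 0 TPM in libraries 5, 10 and 13, a median of 0.0650 TPM and a maximum of 12.0 TPM in library 3. Libraries 1, 3, 9 and 11 held at least 244 counts each, and no other library held more than 17. Atxn7l1 (ENSMUSG00000020564.12; chromosome 12, 33147693 to 33373185, plus strand) had a minimum of 0 TPM in library 13, a median of 3.66 TPM and a maximum of 84.7 TPM in library 3. Its values fell into 5 libraries at 24.6 TPM or more (2, 3, 4, 6 and 8) and 7 at 4.41 TPM or less.

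Atxn7 (ENSMUSG00000021738.4; chromosome 14, 13961440 to 14107302, plus strand) rested on 1 library. Library 4 held 968 counts (9.03 TPM, 97.5% of the summed TPM of the gene), library 10 held 40, library 11 held 1 and the other 9 held none. Without library 4 its mean was 0.0209 TPM, against 0.772 ± 2.60 TPM with it. Thoc7, a subunit gene of the THO mRNA export complex, overlaps the start of the annotated span of Atxn7 on the opposite strand. It averaged 181 ± 104 TPM with counts in all 12 libraries. Atxn7-201, the 1 transcript of Atxn7 that was measured, begins at 14012491, beyond the end of Thoc7 at 13961852.

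Other genes listed with the SAGA deubiquitinating module, not all of them its subunits, were measured at mixed levels. Usp22, the catalytic subunit of the module, averaged 45.1 ± 39.4 TPM with counts in all 12 libraries. Eny2, an adaptor subunit, averaged 15.8 ± 21.2 TPM with counts in 10. Atxn7l2, a further ataxin-7 relative, had counts in 3 libraries and averaged 1.71 ± 5.91 TPM, and the alternative protease gene Usp27x had none in any library. Among 15 genes of the SAGA core, 12 averaged at least 1 TPM, but 2 had a count of 1 or more in every library. Over all 43346 annotated genes, 12184 averaged at least 1 TPM and 8.46% had a count of 1 or more in every library. The highest were Sgf29, a histone methylation reader (66.0 ± 95.4 TPM), the scaffold gene Trrap (45.1 ± 59.5 TPM) and Tada1 (33.3 ± 56.8 TPM), and the lowest was Supt3 (0.161 ± 0.502 TPM).

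Among 21 other genes listed for inherited ataxia, 13 had a count of 1 or more in every library and 9 had 50 or more. Of all annotated genes, 8.46% and 3.72% did. Itpr1, the inositol trisphosphate receptor of the calcium store, averaged 416 ± 64.9 TPM with 50 counts or more in every library, and its lowest library, at 333 TPM, lay above the highest of Atxn10, at 317 TPM. Tgm6 and Pdyn had no count.

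Detection separated Atxn10 and Atxn7l3b from the rest. Of the 120 gene-by-library values, 28 were 0, 24 lay from 1 to under 50 counts, none from 50 to under 100 and 68 at 100 or more. Each library held 3 to 7 of the 10 genes at 50 counts or more, with 3 in library 12 and 7 in libraries 1, 4, 6 and 9. Atxn10, Atxn7l3b and Atxn2, 3 of the 10, had a count of 1 or more in every library, where 8.46% of all annotated genes did. Atxn10 and Atxn7l3b had 50 or more in every library, where 3.72% of all genes did. These shares of all genes include the many that had no count in any library, so genes of like level are the closer comparison. Their transcript length was not matched, and at equal TPM a longer transcript gives more counts. The longest transcripts of Atxn1 and Atxn1l have 10605 and 7526 bases. Atxn10 reached 50 counts in 12 libraries, and so did the median gene of 100 to under 1000 mean TPM (1052 genes). Atxn7l3b reached 50 counts in 12 libraries, Atxn2 in 10 and Atxn7l1 in 7, where the median gene of 10 to under 100 mean TPM (5385 genes) reached it in 8. Atxn1 reached 50 counts in 8 libraries, Atxn1l and Atxn2l in 6 each and Atxn7l3 in 4, where the median gene of 1 to under 10 mean TPM (5650 genes) reached it in 3. Atxn3 reached it in 2 and Atxn7 in 1, where the median gene of 0.1 to under 1 mean TPM (2509 genes) did in 1.

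Differences between the genes were tested within libraries. Over all 45 pairs, the difference of log2(TPM + 1) was tested by flipping its sign in every combination of the 12 libraries (an exact permutation test, two-sided), with Benjamini-Hochberg adjustment over the 45. In all, 26 pairs passed an adjusted p of 0.05 and 29 passed it unadjusted, and the smallest p the test can give is 0.000488. Neighbours in the order of mean levels mostly did not differ beyond their spread. Atxn10 over Atxn2 was the only one of 9 neighbouring pairs to pass, at 2.53 ± 2.53 log2 units (adjusted p = 0.00244, higher in 11 of 12 libraries). Atxn10 exceeded each of the other 8 genes in 12 of 12 libraries. Atxn2 over Atxn7l3b stood at 0.20 ± 2.94 log2 units (adjusted p = 0.851), and the sign of this difference depended on the length scale.

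Among the 6 paralog pairs, 3 passed the test, where 26 of all 45 pairs did. Atxn7l3b exceeded Atxn7l3 by 3.51 ± 1.96 log2 units (adjusted p = 0.00146) and was higher in 12 of 12 libraries. Atxn2 exceeded Atxn2l by 3.22 ± 2.80 (adjusted p = 0.00915) in 10 of 12 libraries, and the exceptions were libraries 3 and 12. Without libraries 1, 4 and 13, this difference was 2.90 and no longer passed (adjusted p = 0.0565). Atxn7l1 exceeded Atxn7 by 2.47 ± 2.64 (adjusted p = 0.00915) and was higher in 10 libraries and lower in 1. In libraries 5, 9 and 12 it was higher by no more than 4, 8 and 1 counts against 0. Atxn7l1 over Atxn7l3 (1.71 ± 2.95, adjusted p = 0.115) and Atxn7l3 over Atxn7 (0.76 ± 1.95, adjusted p = 0.289) did not pass. Atxn1l over Atxn1 stood at 0.01 ± 2.05 (adjusted p = 0.988), a mean difference near 0 made of 7 libraries above it and 5 below, so that the spread of 2.05 log2 units and not the mean describes the pair.

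**Figure D2:**
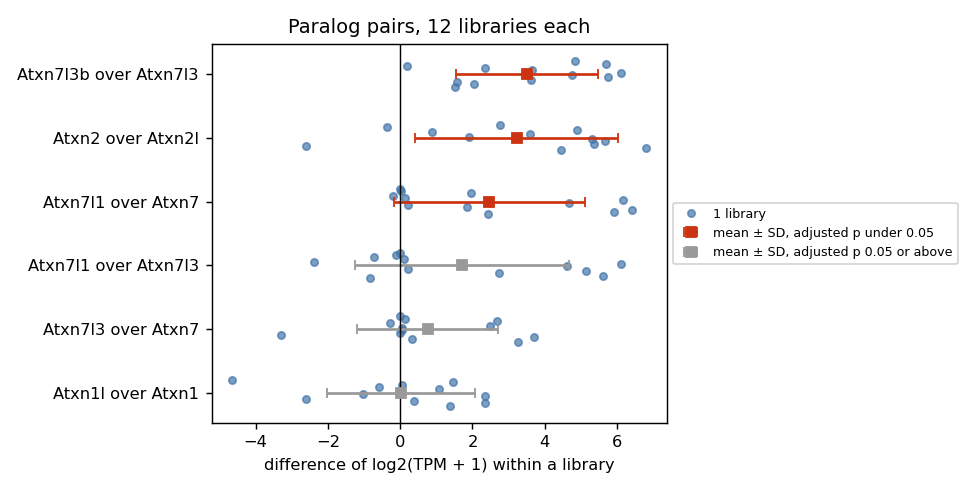
Difference of log2(TPM + 1) within a library (horizontal axis) for the 6 paralog pairs, with a point per library and a square and bar for the mean ± SD over 12 libraries, red where the adjusted p of the exact sign-flip permutation test is under 0.05. All 12 points of Atxn7l3b over Atxn7l3 lie above 0, while those of Atxn1l over Atxn1 lie on both sides.

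The transcript assignments decided part of these levels. Atxn2 has 17 transcripts in the tables, of which 15 had counts, and 6 different transcripts led in one library or another. Atxn2-210, a 795-base protein-coding transcript, held 39.8% of the mean TPM of the gene and led in 5 libraries (2, 4, 5, 6 and 8) with 36.6% to 68.3%. Atxn2-209, a 3294-base transcript with 19 exons and 929 annotated codons (chromosome 5, 121749196 to 121814949), held 15.8% of the TPM but 43.4% of the counts and led in libraries 9, 10 and 12 with 98.6% to 100%. Its lead in library 12 rested on 1 count. The retained-intron transcript Atxn2-213 led in library 1 with 94.3%, and Atxn2-208 in library 11 with 92.0%. With these assignments the effective length of Atxn2, by which TPM divides, ran from 472 bases in library 3 to 3212 bases in library 10. In library 9, 616 counts at 3206 bases gave 11.0 TPM, while in library 11, 601 counts at 1076 bases gave 35.1 TPM.

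Atxn7l1 changed its leading transcript between libraries in the same manner. Of 14 transcripts, 8 had counts and 5 led. Atxn7l1-201 (1624 bases, 3 exons, 123 codons; chromosome 12, 33147693 to 33251146) led in libraries 1, 3 and 5 and held 47.4% of the mean TPM, but 24.8% without library 3. Atxn7l1-202 (2563 bases, 739 codons; 33302515 to 33368273) led in libraries 2 and 6, and the 2 transcripts share no part of the chromosome by these coordinates. Atxn7l1-203 led in library 8, Atxn7l1-210 in library 4 and the 5284-base Atxn7l1-204 in libraries 9 to 12. The gene held 4 counts in library 5, 8 in library 9, 10 in library 10 and 1 in library 12, so the leads there rested on few reads. Atxn2l had 4 transcripts and each led somewhere. Its first by mean TPM, the 682-base Atxn2l-204 with 36.4%, was seen in library 3 alone and held 7.63% of the counts, of which the 4023-base Atxn2l-203 held 54.3%.

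**Figure D3:**
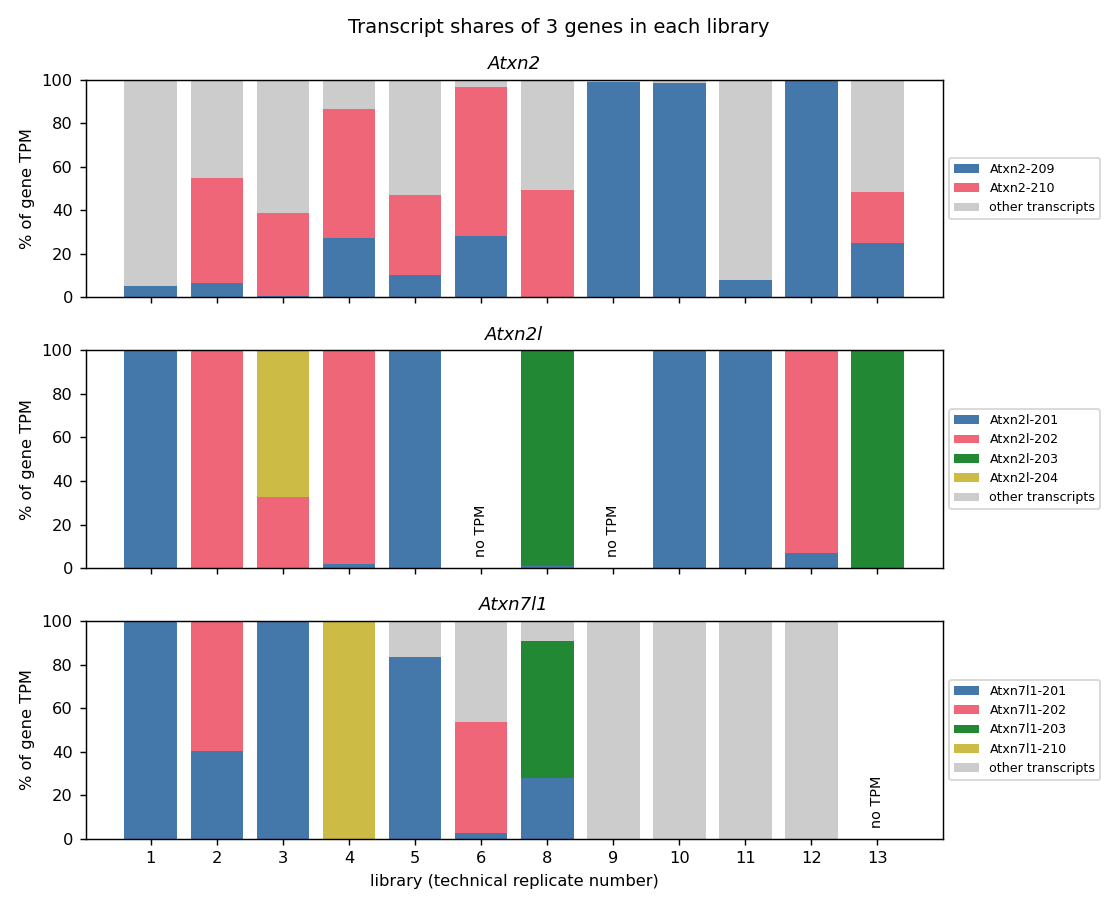
Share of the TPM of Atxn2, Atxn2l and Atxn7l1 (vertical axis, percent) given to each transcript in each library (horizontal axis), for transcripts that hold 10% or more of the mean TPM of the gene, with the others in grey. The colour that fills a bar changes between libraries: Atxn2-209 fills 98.6% or more in libraries 9, 10 and 12 and 28.3% or less in the others. The bar of Atxn2 in library 12 stands for 1 count.

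The other genes had 1 leading transcript in most libraries. Atxn1-202 held 98.6% of the TPM of Atxn1 and led in 10 of 11 libraries, the exception being library 10, where Atxn1-201 held 96.9%. In libraries 8 and 11 the lead of Atxn1-202 rested on 6 and 2 counts. Atxn7l3b-201, a single-exon transcript, led in all 12 libraries with 92.7% of the TPM, but held 58.2% in library 12, with the rest on Atxn7l3b-202. For Atxn7l3, the leading transcript was Atxn7l3-206 in all 9 libraries with counts, at 96.2% of the TPM overall and 78.5% in library 11. Its annotation is a retained intron (7 exons, 3102 bases, no coding sequence; chromosome 11, 102289300 to 102293444), so few of the counts of this gene were assigned to a protein-coding transcript. In libraries 4, 6 and 8 the lead of Atxn7l3-206 rested on 1, 2 and 3 counts. For Atxn1l, Atxn7 and Atxn10 only 1 transcript was quantified, so no other could lead. Atxn3 had counts on 1 of 5 transcripts. Among 4845 genes with a mean of 10 TPM or more and at least 2 transcripts, 21.0% had the same leading transcript in every library that detected them, and the median gene had 2 different ones.

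Since length assignments moved the TPM, CPM were also divided by the length of the longest annotated transcript, a measure added after the data were seen. On this scale Atxn7l3b came second in the family at 31.0 ± 23.8 CPM per kilobase and Atxn2 was next at 17.7 ± 22.4, where by TPM Atxn2 came second. Atxn10 stayed first at 174 ± 75.1 CPM per kilobase. In library 5, where Atxn2 was higher by TPM, Atxn10 stood at 251 CPM per kilobase and Atxn2 at 75.6. Neither scale gave a difference between Atxn2 and Atxn7l3b that passed the test. Of the 45 pairs, 26 passed on this scale, 25 of them called in the same direction by TPM.

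**Figure D4:**
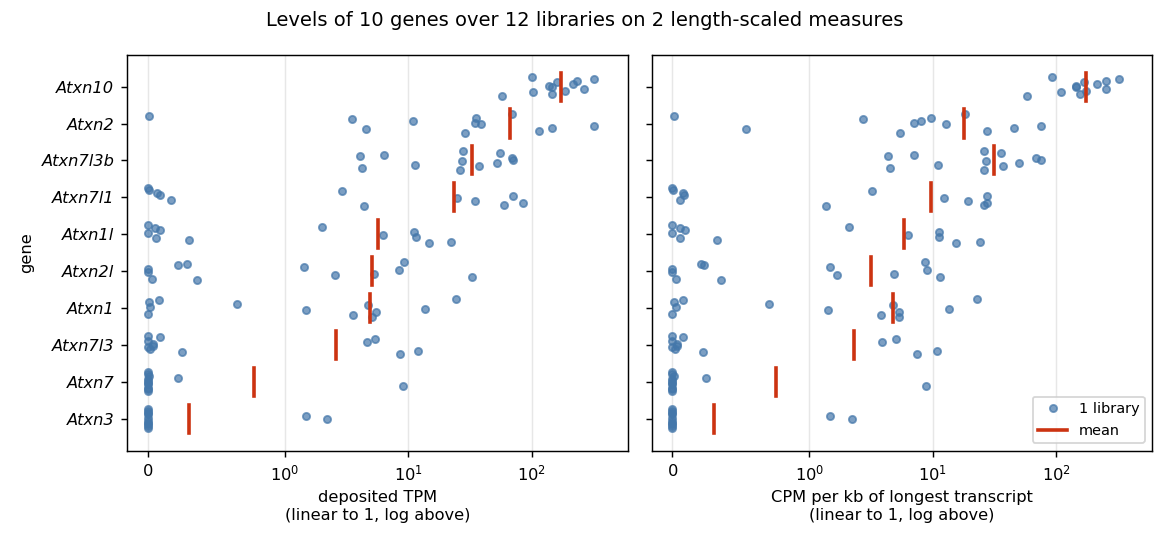
Level of each gene in 12 libraries as deposited TPM (left) and as CPM per kilobase of the longest annotated transcript (right), on axes that are linear to 1 and logarithmic above, with a point per library and a red bar at the mean. Atxn2 has the mean next below Atxn10 on the left (67.2 TPM), and Atxn7l3b has it on the right (31.0 CPM per kilobase).

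The spread between libraries was then set against that of other genes. All 10 genes varied beyond the sampling of reads (chi-square test of the counts, adjusted over all genes), with a variance of 173 (Atxn3) to 2163 (Atxn2) times that of Poisson counts, but so did 99.9% of the 13899 genes tested. Against genes of like abundance, none of the 10 passed the test. In edgeR's quasi-likelihood fit, 0 of the 10 varied more than the abundance trend, where 0.0144% of all genes did, and 0 varied less, where 2.14% did. At an unadjusted p of 0.05 the counts for the family were also 0, where 0.684% of all genes passed above the trend and 5.89% below it, so that 0 of 10 lies near the background. DESeq2 called no gene of the family a dispersion outlier, nor any of the 13899 genes (0.0%). The quasi-dispersion of the genes was 0.501 (Atxn7l3b) to 1.51 (Atxn7l1) times the trend, with a median of 1.05, where the median over all genes tested was 1.20. In TPM, the coefficient of variation was 0.435 for Atxn10, where the median of the 1052 genes of 100 to under 1000 mean TPM was 0.602, and 0.748 for Atxn7l3b, where the median of its range was 1.30. At the other end it was 3.37 for Atxn7, where the median of its range was 2.92.

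**Figure D5:**
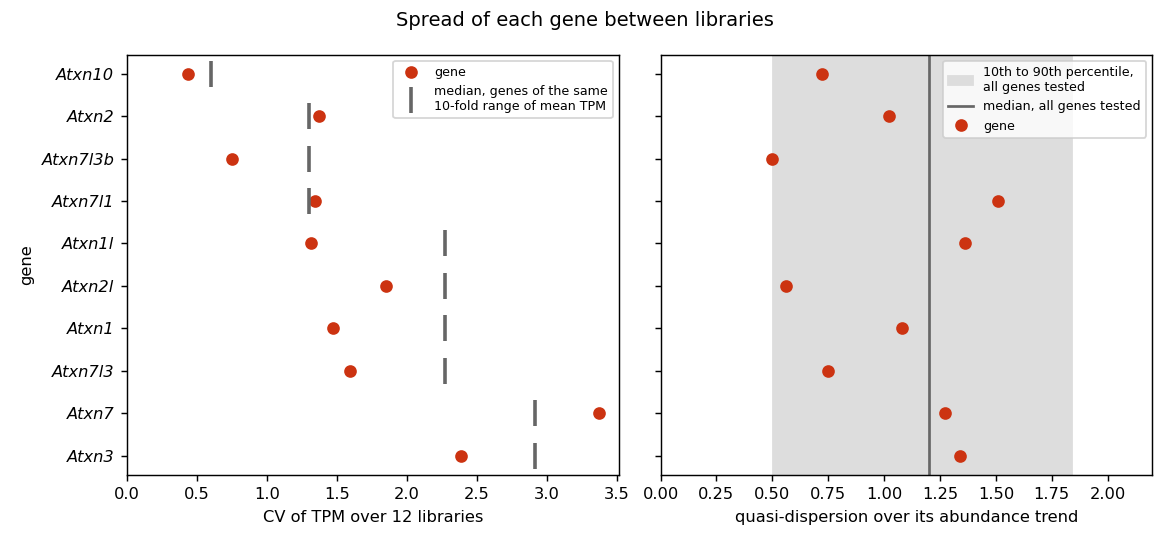
Left, coefficient of variation (CV) of TPM over 12 libraries for each gene (red) with the median of all genes in the same 10-fold range of mean TPM (grey bar). Right, quasi-dispersion of each gene divided by the abundance trend (red), with the median (line) and the 10th to 90th percentile (shading) of all 13899 genes tested. The lowest ratio is that of Atxn7l3b (0.501) and the highest that of Atxn7l1 (1.51).

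For the 2 genes with 50 counts or more in every library, the genes with the most similar pattern over the 12 libraries were sought among 1612 others with the same property, by Spearman's rho of TPM. Atxn10 was most like Ywhaz (rho = 0.895), Mdh1 (0.804) and Nedd8 (0.797), and Atxn7l3b was most like Sept7 (0.916), Ubl4a (0.797) and Mtus2 (0.790). The median size of rho over all candidates was 0.210 for each. These are the highest of 1612 values over 12 libraries that share 1 lysate, and they are given as a description.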

How the data were processed

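Per the labels, 12 Smart-seq libraries were made as technical replicates of 1 pool, with the build mm10. Per the file headers, the tables that the authors deposited for genes and transcripts give expected counts (estimated reads per feature, partly fractional) and TPM, which the authors scaled over all features, spike-ins included. The quantifier and aligner were not named in the sources used here. Depth was 13694551 to 24108916 expected counts on annotated genes per library; reads are PCR copies without molecular identifiers. Symbols, coordinates and transcript sequences came from GENCODE M21, whereas the tables carry M4 identifiers, so some transcript lengths differ between them; 42462 of 43346 identifiers matched. Numbered features and spike-ins were left out of gene results.

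Expected counts were rounded for count tests. Variation was tested where the mean count was 5 or more, with a chi-square test and with edgeR 4.0.16 (TMM, intercept-only glmQLFit, upper and lower tails of the F test), and alternatively with DESeq2 1.42.0. Pairs were tested with Python 3.11.15 on log2(TPM + 1), pseudocount 1; such differences understate those of low genes. Scripts were tested on simulated data. The members and lists were chosen with earlier results of these data known. All 10 members are named; from each partner list, the 3 highest, the lowest and the direct subunits or enzymes are. Some genes that this rule takes are not reported here.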

Additional observations from a re-analysis of the deposited data

How the results depend on the processing

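Under the alternatives run, 117 values of the main counts and levels and 505 of single genes, pairs and all-gene counts were classed as unchanged. Levels and shares so classed stayed within their spread (1 SD over libraries), and pairs kept their sign and side of the threshold. For a gene whose SD exceeded its mean, even a fall to 0 TPM stayed in this class. Atxn7 was so classed at 0.0209 TPM without library 4, against 0.772 TPM. So was Atxn7l1 at a median of 3.66 TPM, against a mean of 23.5 TPM. For such genes the class cannot show that a level was stable. Counts so classed moved by a small factor at most. The exceptions follow, beside Atxn2 over Atxn2l, given with its pair. Genes with a count of 1 or more in every library numbered 3, classed as unchanged although they numbered 2 at a count of 5, a count of 10 or a TPM of 1. Without libraries 1, 4 and 13 they numbered 4. The order of the 10 genes by mean TPM depended on the scale and on single libraries: 5 kept their place by CPM without length scaling, 6 by CPM per kilobase of the longest transcript, 7 by the median over libraries and 7 to 10 with 1 library left out (7 without library 1, 2 or 5). The summed TPM of 315 ran from 284 to 330 when 1 library was left out. Pairs called numbered 25 to 28 with 1 library left out and 23 to 27 under the other settings, against 26, and without libraries 1, 4 and 13 24 of 26 were called in both. Atxn7l3b over Atxn7l1 passed by CPM per kilobase (2.35 log2 units, adjusted p = 0.0267), where it was 1.80 (adjusted p = 0.115) by TPM; the cause was not tested. Among the neighbouring and paralog pairs, the only pairs followed singly, the sign of 5 differences that did not pass the test depended on the setting, and these 5 passed under none of the settings run. With 1 library left out, Atxn2 over Atxn7l3b ran from -0.18 to 0.75 log2 units, Atxn1l over Atxn2l from -0.20 to 0.63, Atxn1l over Atxn1 from -0.20 to 0.43, Atxn2l over Atxn1 from -0.66 to 0.16 and Atxn7 over Atxn3 from -0.24 to 0.21. With a pseudocount of 0.1, Atxn2 over Atxn7l3b was -0.043, Atxn1l over Atxn1 -0.18 and Atxn7 over Atxn3 -0.013. By CPM, Atxn2 over Atxn7l3b was -1.19 and Atxn1l over Atxn1 -0.49, and by CPM per kilobase Atxn2 over Atxn7l3b was -1.23. Without libraries 1, 4 and 13, Atxn2 over Atxn7l3b was -0.28, Atxn2l over Atxn1 0.24 and Atxn7 over Atxn3 -0.30. Under the alternatives run, none of the 10 genes varied above or below the trend. Over all genes, calls above it were 2, and 0 with the robust fit and with DESeq2 and 1 without library 1; calls below it were 298, and 142 at a mean count of 50 or more. Atxn7 had too few counts for the Poisson test without library 4. The leading transcript of Atxn2l, at 36.4% of TPM, fell to 6.72% as a mean of single-library shares, to 7.63% of counts and to 0% without library 3.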
